A study of Mus musculus with 12 samples.

Results

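Glycolysis and the response to low oxygen were followed across 38 genes, chosen by name, of the 25511 genes in the deposited table. They were chosen with earlier results of these data known, which limits every comparison of the 38 with all genes. The 38 fall into 7 roles: 3 carriers of glucose and lactate, 9 enzymes of upper glycolysis, 6 of lower glycolysis, 4 regulators of glycolytic flux, 3 genes of the hypoxia-inducible factor (HIF) and its oxygen sensors, 3 mitochondrial hypoxia targets and 10 other hypoxia targets. RNA came from primary osteoblasts, the bone-forming cells, freed by collagenase from the skull caps of neonatal C57Bl/6J mice. The mice were wild type (WT) or labelled F2rl1 -/- (KO), F2rl1 being the gene of protease-activated receptor 2. After 48 h of preculture all groups were kept for 4 days in the growth medium of prostate cells, with 20% serum. For the conditioned groups this medium had first stood for 48 h on cultures of MDA-PCa-2b, a line from a human prostate cancer, and for the unconditioned groups it had not. The 12 samples form 4 groups of 3, and the comparisons ask what the tumour-conditioned medium changes and whether that depends on the receptor. The deleted part of F2rl1 and the number of animals behind each culture are not given in the sources used here. The p-values hold for the spread among the sequenced cultures, which may be technical.

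Glycolysis turns glucose into pyruvate, and lactate dehydrogenase turns pyruvate into lactate, which leaves the cell through monocarboxylate carriers. Osteoblasts are known for taking up much glucose and releasing much of it as lactate. When oxygen is short, prolyl hydroxylases no longer mark HIF-1alpha for destruction, and HIF raises transcription of glucose carriers, most glycolytic enzymes, and genes that hold back mitochondrial respiration. HIF-1alpha is controlled mainly as a protein, so the level of its mRNA is not a measure of its activity.

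HIF binds a short core, ACGTG or GCGTG. Promoter windows of 300 bases, from 250 before to 50 after the start, were matched in RefSeq (GRCm38.p6) for 36 of the 38 genes. Bnip3l and Ndrg1 had no entry. Where a gene had several windows, the first listed was used. A few windows are shown as examples. Ldha, Bnip3 and Slc16a3 were among the members spread most widely over the conditioned libraries and were not called in the main fit, and Eno2 rose. Capitals mark ACGTG or GCGTG on either strand, and overlapping matches, as in CACGTG, run together.
Ldha, chr7:46845554-46845853, plus strand: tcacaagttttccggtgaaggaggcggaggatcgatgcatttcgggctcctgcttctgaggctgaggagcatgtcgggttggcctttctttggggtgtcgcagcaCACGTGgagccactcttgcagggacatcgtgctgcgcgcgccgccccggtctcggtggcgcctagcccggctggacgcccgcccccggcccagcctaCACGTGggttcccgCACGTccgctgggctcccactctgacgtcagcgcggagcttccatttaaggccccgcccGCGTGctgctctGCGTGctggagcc
Bnip3, chr7:138909457-138909756, minus strand: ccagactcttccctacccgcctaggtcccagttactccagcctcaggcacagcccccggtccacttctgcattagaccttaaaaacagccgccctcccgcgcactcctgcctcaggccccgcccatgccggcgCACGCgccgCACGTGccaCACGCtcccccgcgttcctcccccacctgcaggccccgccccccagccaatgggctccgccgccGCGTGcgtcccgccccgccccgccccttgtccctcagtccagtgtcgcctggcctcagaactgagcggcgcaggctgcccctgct
Slc16a3, chr11:120948817-120949116, plus strand: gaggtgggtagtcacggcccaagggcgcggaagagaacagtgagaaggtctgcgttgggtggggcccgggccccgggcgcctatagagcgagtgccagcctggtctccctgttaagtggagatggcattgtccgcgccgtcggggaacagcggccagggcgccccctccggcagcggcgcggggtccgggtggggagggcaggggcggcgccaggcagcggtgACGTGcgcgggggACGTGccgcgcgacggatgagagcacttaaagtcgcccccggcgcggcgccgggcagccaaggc
Eno2, chr6:124769624-124769923, minus strand: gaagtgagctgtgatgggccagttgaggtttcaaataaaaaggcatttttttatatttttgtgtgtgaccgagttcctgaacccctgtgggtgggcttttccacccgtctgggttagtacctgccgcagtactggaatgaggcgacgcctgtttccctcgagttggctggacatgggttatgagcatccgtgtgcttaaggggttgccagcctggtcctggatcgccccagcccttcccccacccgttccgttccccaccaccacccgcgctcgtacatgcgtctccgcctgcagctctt

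The Ldha window holds 5 matches to ACGTG and 2 to GCGTG, and the Bnip3 window 2 and 3. Slc16a3 has 2 matches to ACGTG and none to GCGTG, and Eno2 has neither. The windows shown do not stand for the whole set. Of other members with negative changes in KO, Gpi1 and Tpi1 (not called) have neither core, while P4ha2, Egln3 and Slc2a1 (called) have ACGTG. Pdk1 and Pfkl, spread as widely over the conditioned KO libraries, have no ACGTG. Slc16a1 and Ero1l, which ran against most members there, have 3 and 1. ACGTG occurred in 21 of the 36 windows (58.3%), against 20.7% of 17492 windows of protein-coding genes. GCGTG occurred in 20 (55.6%), against 38.4%. Either was present in 28 (77.8%), against 49.2%. These counts cover first windows only. Hk1, Aldoa, Pkm, Vegfa and Mxi1 had no match there but had a match in another window. The median GC content of the members' windows was 65.0%, against 56.3% for protein-coding genes, and both motifs are rich in G and C. The members were chosen as genes of glycolysis and hypoxia, among them known HIF targets. A higher share of these cores is thus at least partly built into the choice. A match describes letters, not binding.

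The deposited table gives estimated fragments per gene and library, with 15023994 to 16956754 fragments a library. The sample titles use the same culture numbers in both media, so cultures may be paired across media. Libraries are numbered from 0 within a group, and these numbers could not be matched to the sample titles. The calls below therefore come from a fit that ignores any pairing, unless a block is named. Libraries 0 and 1 of the unconditioned WT group differed by less than sampling noise, with equal values in 91.8% of 17538 genes, and were averaged and counted as 1 sample, which leaves 11 libraries. A sample titled WT also carries the KO genotype label and was kept in the unconditioned WT group by its title. The targeted gene does not separate the genotypes: F2rl1 had 33, 33 and 46 fragments in unconditioned KO and 31, 13 and 12 in conditioned KO, against 25 and 20 in unconditioned WT and 14, 23 and 14 in conditioned WT. Genotypes are therefore given as labelled, and every difference between KO and WT is between libraries with these labels. Osteoblast markers were abundant as a sum, with 25200 to 59380 CPM (fragments scaled to a common library size) over 15 markers. None of these was at 0 in all libraries, and 13 passed the filter on low counts.

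All 38 members passed the filter on low counts. Per transcript length, in FPKM, the most abundant in unconditioned WT were Ldha, the lactate dehydrogenase subunit, at 759 FPKM (mean, n = 2), Aldoa, the main aldolase, at 671 FPKM, and Pkm, pyruvate kinase, at 670 FPKM. Tpi1, triose phosphate isomerase, followed at 317 FPKM and Hif1a at 207 FPKM. The lowest were Aldoc, a brain aldolase, at 1.68 FPKM, Ankrd37, an ankyrin repeat protein and known HIF target, at 2.19 FPKM, and Pfkfb4, a regulator of phosphofructokinase, at 2.55 FPKM. Ankrd37, with 2 to 59 fragments a library, was the most thinly measured member. Libraries were not made to keep the strand, and 15 members share exonic bases with another annotated gene, 13 of them on the opposite strand, so their fragments cannot be fully told apart. For 12 members a stretch of at least 300 bases is at least 95% identical to another gene, mostly a pseudogene, as for Bnip3 (5 genes), Pgk1 (4), Eno1 (3) and Ldha (3). Gapdh, a glycolytic enzyme outside the 38, has 77 such genes and is listed with 3 to 13 fragments. How the counting treated such fragments is not given in the sources used here, and levels of these genes are uncertain.

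In KO, conditioned medium went with lower RNA of Slc2a1, Pdk3, Pfkfb3, Hif1a, Egln1, Egln3, P4ha1, P4ha2, Adm and Mxi1 and with a higher level of the enolase Eno2. Of the 38 members, 11 were called (edgeR's quasi-likelihood test, Benjamini-Hochberg adjusted p under 0.05 over all genes), 10 of them lower. This is 28.9% of the members, against 18.3% of all 13603 genes tested, of which 8.58% were called lower and 9.68% higher. The members' median log2 change was -0.87, against 0.02 for all genes, with 33 of 38 below 0. In WT, 1 member, Eno2, was called, against 1.78% of all genes (1.23% higher and 0.551% lower), and the median was -0.24, against 0.01. That median rested on single libraries: it was -0.14, with 20 of 38 below 0, without conditioned WT library 1 and -0.43 without library 2, and -0.10 with the replicate block. The test of the difference between the medium effects called no member for the interaction (0.0% of all genes, 412 of them and no member at an unadjusted p under 0.05, and no gene by DESeq2 or limma). The largest differences between the genotypes' medium effects were Ankrd37 (-1.63, SE 1.43) and Bnip3 (-1.37, SE 0.92) on the lower side and Ndrg1 (0.48, SE 0.50) and Slc16a1 (0.33, SE 0.38) on the higher, with adjusted p of 0.819 or more. Averaged over both genotypes, the same 11 members were called, against 20.5% of all genes, the 10 lower ones by -1.34 (Adm) to -0.68 (Slc2a1) and Eno2 by 1.30. Media did not overlap in KO for 19 lower members and 1 higher (15.4% and 15.8% of all genes), in WT for 18 and 2 (20.6% and 21.8%), and over both genotypes for 13 and 1 (8.45% and 7.98%). These counts rest on few libraries. Within the KO libraries alone, with the library number as a block, no member and no gene was called, with 2 residual degrees of freedom. The block in the fit of all groups called 16 members, against 13.4% of all genes. That block also ties same-numbered libraries of WT and KO, which differ in genotype label, so the fits are not alike.

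**Figure D1:**
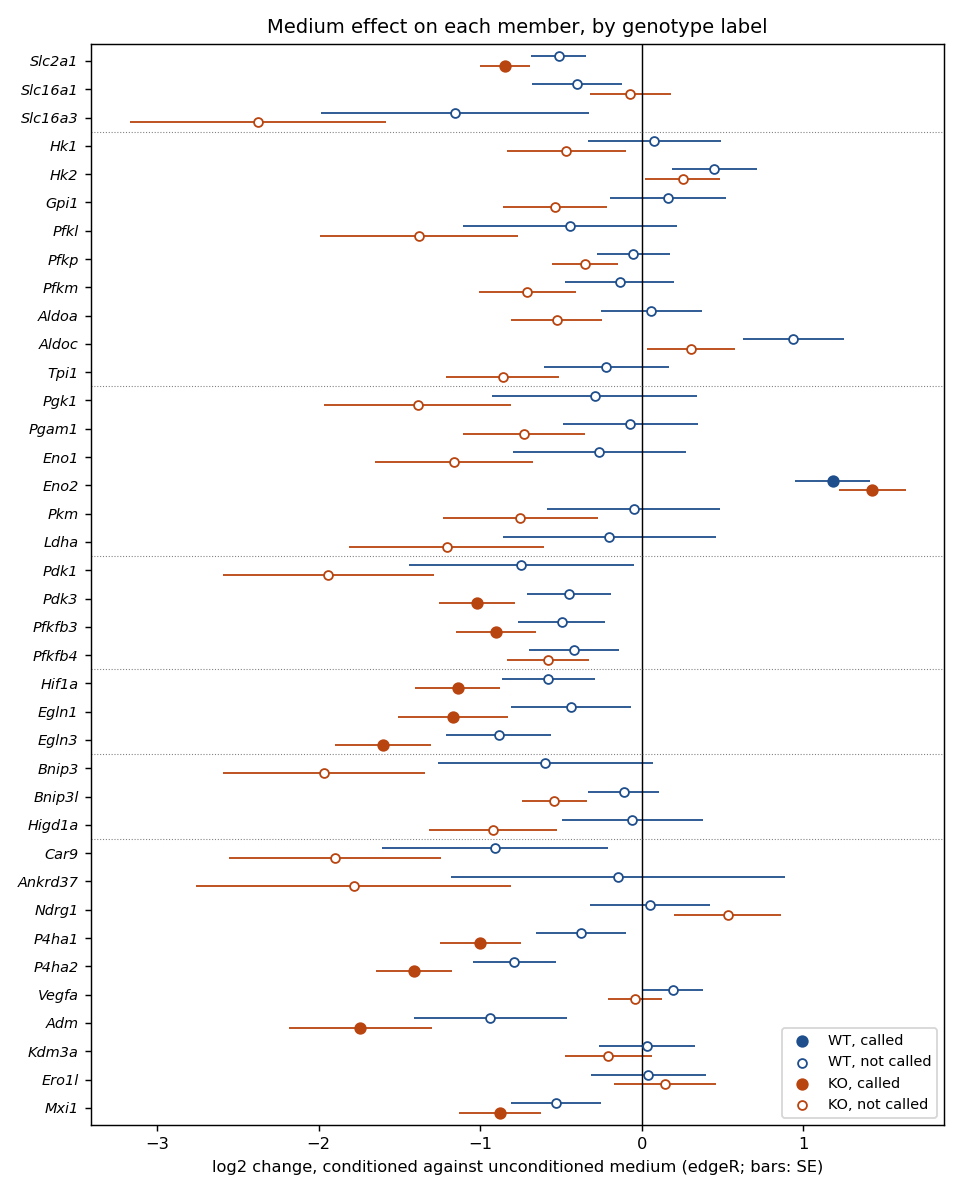
Log2 change between conditioned and unconditioned medium for each of the 38 members (rows, grouped by role) in WT (blue) and KO (orange). Bars are SE, filled points are called by edgeR, and the horizontal axis is log2. In KO 10 members are called on the lower side and Eno2 on the higher side, while the longest bars belong to Slc16a3, Pdk1, Car9, Bnip3 and Ankrd37, none of which is called.

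Slc2a1 encodes GLUT1, the main glucose carrier of osteoblasts (chromosome 4, 119108745 to 119137329, GRCm38). Its level was 183 and 196 CPM in unconditioned WT, 136, 105 and 157 in conditioned WT, 252, 203 and 208 in unconditioned KO, and 134, 114 and 120 in conditioned KO. Every conditioned library lay below every unconditioned one. The change in KO was -0.85 (log2, SE 0.15, adjusted p = 0.0102), and that in WT was -0.52 (SE 0.17, adjusted p = 0.166). The call in KO held in 10 of the 11 fits that left out 1 library.

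Slc16a3 encodes MCT4, the carrier that exports lactate from glycolytic cells (chromosome 11, 120948484 to 120959000). It stood at 177 and 187 CPM in unconditioned WT, 83.1, 32.3 and 130 in conditioned WT, 255, 207 and 207 in unconditioned KO, and 103, 15.6 and 9.92 in conditioned KO. Conditioned libraries were again below all unconditioned ones, but within conditioned KO the highest was 10.4 times the lowest. The log2 change in KO, -2.38 (SE 0.79), was the largest of the 38 and was not called (adjusted p = 0.0616). Slc16a1 encodes MCT1, a carrier of the same family that moves lactate in or out. Its level was 130 and 127 CPM in unconditioned WT, 91.3, 121 and 78.2 in conditioned WT, 107, 153 and 153 in unconditioned KO, and 83.7, 153 and 156 in conditioned KO. In conditioned KO it was thus lowest in library 0, where Slc16a3 was highest. As a share of the FPKM of the pair, Slc16a1 made up 27.4% ± 0.959 (SD, n = 2) in unconditioned WT, 41.7% ± 22.4 (n = 3) in conditioned WT, 24.8% ± 6.63 (n = 3) in unconditioned KO and 67.7% ± 33.4 (n = 3) in conditioned KO.

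None of the 9 genes of upper glycolysis was called in either genotype. Hk2, the hexokinase that HIF is known to induce, had 93.8 and 112 CPM in unconditioned WT, 166, 106 and 150 in conditioned WT, 148, 91.6 and 81.6 in unconditioned KO, and 141, 122 and 120 in conditioned KO. Its groups overlapped, with log2 changes of 0.45 (SE 0.26) in WT and 0.25 (SE 0.23) in KO. Hk1, the housekeeping hexokinase, ranged from 75.3 to 256 CPM over the libraries. Hk2 accordingly made up 31.0% ± 1.28 of the FPKM of the pair in unconditioned KO and 44.9% ± 10.8 in conditioned KO (SD, n = 3 each), and 29.0% ± 1.87 (n = 2) and 34.3% ± 1.24 (n = 3) in WT.

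The 3 phosphofructokinase subunits, which form the committed step, had negative changes of different size in KO. None was called, and the subunits were not tested against each other. Pfkl, the liver-type subunit, had a log2 change of -1.38 in KO (SE 0.61, adjusted p = 0.132), with 257, 62.8 and 39.5 CPM in the conditioned libraries against 255 to 407 in the unconditioned ones. The muscle-type Pfkm changed by -0.71 (SE 0.30, adjusted p = 0.121) and the platelet-type Pfkp by -0.35 (SE 0.20, adjusted p = 0.236). Pfkl supplied 65.7% ± 4.46 of the FPKM of the 3 in unconditioned KO and 44.5% ± 17.5 in conditioned KO (SD, n = 3 each), where its share was 64.1%, 38.9% and 30.4% in libraries 0, 1 and 2.

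The remaining upper enzymes are Gpi1, glucose phosphate isomerase, Aldoa, Aldoc and Tpi1. Aldoc was the only one of them with a positive change in both genotypes, 0.94 in WT (SE 0.31, adjusted p = 0.172) and 0.30 in KO (SE 0.27, adjusted p = 0.443). It had 2.69 and 2.80 CPM in unconditioned WT, 6.18, 4.52 and 5.10 in conditioned WT, 3.52, 2.54 and 3.30 in unconditioned KO, and 4.98, 4.08 and 2.53 in conditioned KO. In WT its groups did not overlap and in KO they did. Its share of the aldolase FPKM was at most 0.579% in any library. Gpi1, Aldoa and Tpi1 changed by -0.54, -0.53 and -0.86 in KO (SE 0.32, 0.28 and 0.35) and by 0.16, 0.06 and -0.22 in WT (SE 0.36, 0.31 and 0.39).

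In lower glycolysis, Eno2 and Eno1 went in opposite directions in KO. Eno2, or gamma enolase, is best known from neurons, while Eno1, or alpha enolase, is the form of most tissues. Eno2 (chromosome 6, 124760055 to 124769544) had 16.6 and 16.3 CPM in unconditioned WT, 42.1, 36.1 and 33.8 in conditioned WT, 12.4, 11.3 and 8.02 in unconditioned KO, and 35.0, 28.4 and 22.0 in conditioned KO. All 6 conditioned libraries were above all 5 unconditioned ones, and Eno2 was the only member of which this held. It rose by 1.18 in WT (log2, SE 0.23, adjusted p = 0.0406) and by 1.43 in KO (SE 0.21, adjusted p = 0.00541). The KO call held in all 11 fits that left out 1 library, and the WT call in 5 of 11, with adjusted p up to 0.349. Eno1 changed by -1.16 in KO (SE 0.49, adjusted p = 0.117) and -0.26 in WT (SE 0.54, adjusted p = 0.891). Eno2 therefore made up 1.85% ± 0.335 of the enolase FPKM in unconditioned KO and 12.5% ± 4.91 in conditioned KO (SD, n = 3 each), and 3.12% ± 0.0443 (n = 2) and 8.92% ± 3.84 (n = 3) in WT.

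Ldha (chromosome 7, 46845804 to 46855627) had 1233 and 1309 CPM in unconditioned WT, 1232, 558 and 1526 in conditioned WT, 1753, 1215 and 1161 in unconditioned KO, and 1258, 314 and 215 in conditioned KO. Its groups overlapped in both genotypes, because conditioned KO library 0 and conditioned WT libraries 0 and 2 lay at unconditioned levels. The changes, -1.21 in KO (SE 0.60, adjusted p = 0.171) and -0.20 in WT (SE 0.66, adjusted p = 0.936), were not called. Pgk1, phosphoglycerate kinase, Pgam1, phosphoglycerate mutase, and Pkm had changes of -1.39 (SE 0.58), -0.73 (SE 0.38) and -0.75 (SE 0.48) in KO. In WT these were -0.29 (SE 0.63), -0.07 (SE 0.42) and -0.05 (SE 0.53). Pkm has 2 mutually exclusive exons, M1 and M2 (chromosome 9, 59675029 to 59675195 and 59675568 to 59675734), and M2 is the form of growing and tumour cells. By the authors' transcript estimates, M1 made up 38.4% ± 2.52 of Pkm fragments in unconditioned WT (SD, n = 2), 41.3% ± 0.870 in conditioned WT (n = 3), 35.2% ± 4.47 in unconditioned KO (n = 3) and 43.4% ± 1.56 in conditioned KO (n = 3). The ranges of the 2 media did not overlap in KO, 31.5% to 40.2% and 42.5% to 45.2%, and no test was made. In WT they were 36.6% to 40.2% and 40.3% to 41.9%. That gap is smaller than the 0.24 points between the 2 estimates of the repeated unconditioned WT library, so it is not told from none. For these shares library 0 of that pair was used, without averaging. In the authors' deposited table none of the 72 splicing tests and 60 promoter tests, each on 10 members, was significant.

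**Figure D2:**
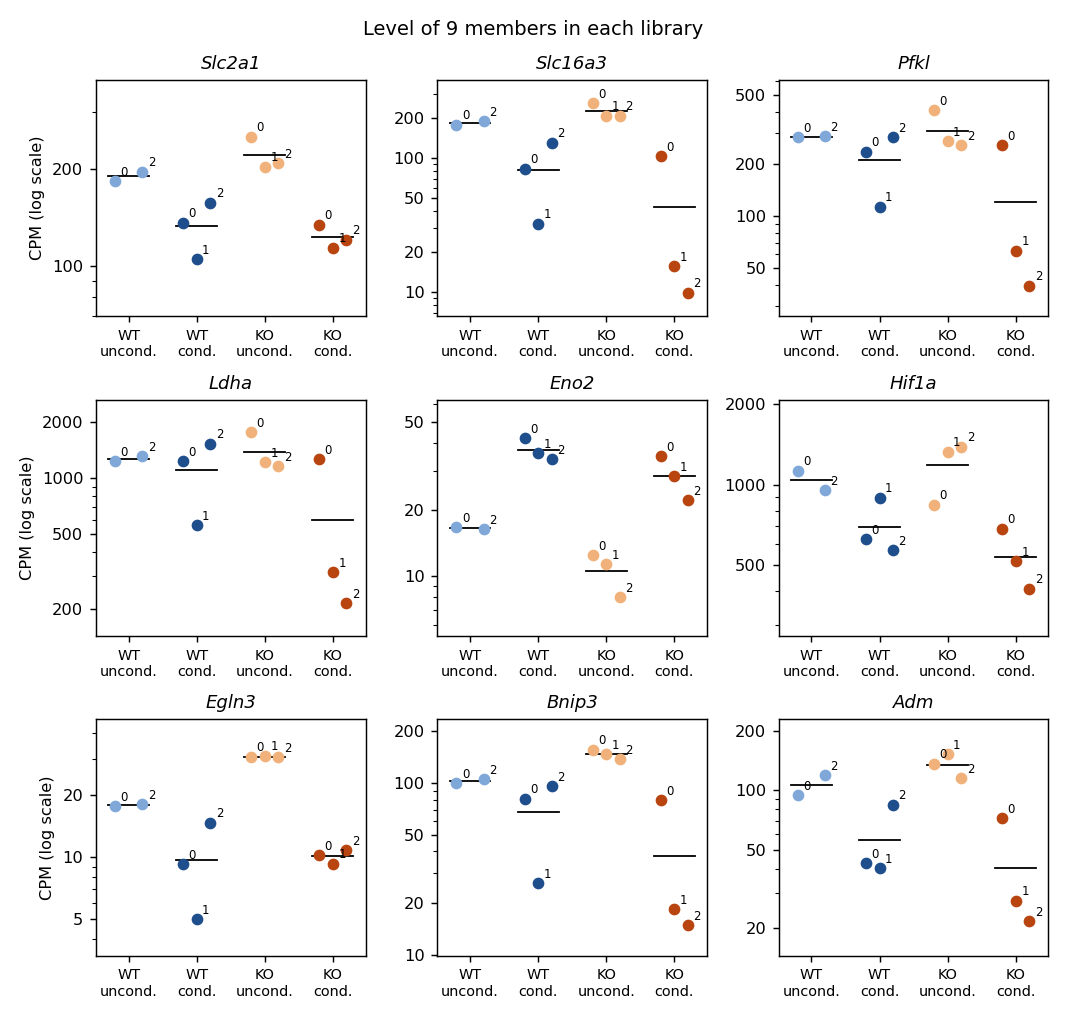
Level in CPM (log axis) of 9 members in each of the 11 libraries, with the library number beside each point and the group mean as a bar. Eno2 is higher in all conditioned libraries, Slc2a1 lower in all of them, and Slc16a3, Pfkl, Ldha and Bnip3 are spread widely over the conditioned KO libraries, with library 0 on top.

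Of the 4 regulators of flux, Pdk3 and Pfkfb3 fell in KO. Pdk3 encodes a kinase that shuts pyruvate out of the mitochondrial oxidation pathway (chromosome X, 93764616 to 93832095). It had 91.2 and 88.6 CPM in unconditioned WT, 67.3, 59.7 and 70.3 in conditioned WT, 96.1, 93.1 and 94.95 in unconditioned KO, and 70.0, 34.7 and 35.4 in conditioned KO, with every conditioned library below every unconditioned one. It fell by 1.02 in KO (log2, SE 0.24, adjusted p = 0.0205), and the WT change was -0.45 (SE 0.26, adjusted p = 0.469). The KO call held in 7 of the 11 fits that left out 1 library. Pfkfb3 makes fructose 2,6-bisphosphate, the activator of phosphofructokinase (chromosome 2, 11471431 to 11553929). It had 116 and 111 CPM in unconditioned WT, 102, 48.5 and 89.7 in conditioned WT, 146, 132 and 118 in unconditioned KO, and 86.7, 59.9 and 65.5 in conditioned KO. Again no conditioned library reached an unconditioned one. It fell by 0.90 in KO (SE 0.25, adjusted p = 0.0345), a call that held in 4 of the 11 fits that left out 1 library.

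Pdk1, the kinase of the same family that HIF is best known to induce, had the larger but less even change, -1.94 in KO (SE 0.65, adjusted p = 0.0632). Its 3 unconditioned KO libraries lay between 127.5 and 127.9 CPM and the conditioned ones at 76.0, 14.9 and 8.95 CPM. Pfkfb4 had 8.48 and 10.1 CPM in unconditioned WT, 6.82, 6.28 and 7.74 in conditioned WT, 9.12, 7.12 and 5.86 in unconditioned KO, and 6.78, 4.20 and 3.83 in conditioned KO. It was not called in either genotype.

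All 3 genes of the HIF regulator and its sensors fell in KO. Hif1a (chromosome 12, 73901354 to 73947530) had 1128 and 952 CPM in unconditioned WT, 625, 894 and 571 in conditioned WT, 843, 1325 and 1385 in unconditioned KO, and 686, 519 and 409 in conditioned KO. Within each genotype the media did not overlap. It fell by 1.14 in KO (SE 0.26, adjusted p = 0.0206), and the WT change was -0.58 (SE 0.29, adjusted p = 0.391). Its KO call held in 7 of those 11 fits. In conditioned WT its highest value was in library 1. For 28 of the 38 members that library was among the 3 lowest of the 11, against 25.3% of all genes. Egln1 encodes PHD2, the main oxygen-sensing prolyl hydroxylase (chromosome 8, 124908587 to 124949254). It had 118 in both unconditioned WT libraries, 100.4, 53.1 and 108 CPM in conditioned WT, 161, 133 and 130 in unconditioned KO, and 99.9, 44.9 and 43.9 in conditioned KO. It fell by 1.17 in KO (SE 0.34, adjusted p = 0.0420), a call that held in 2 of the 11 fits that left out 1 library.

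Egln3 encodes PHD3, the sensor that is itself a strong HIF target (chromosome 12, 54178981 to 54203874). Its conditioned KO libraries were even, with 10.2, 9.31 and 10.8 CPM against 30.6, 31.0 and 30.5 in unconditioned KO. In WT it had 17.6 and 18.1 CPM in unconditioned and 9.27, 5.00 and 14.7 CPM in conditioned medium. Egln3 fell by 1.60 in KO (SE 0.30, adjusted p = 0.0107), a call that held in 10 of 11, and the WT change was -0.89 (SE 0.32, adjusted p = 0.213). The unconditioned KO libraries also lay above the unconditioned WT libraries, a difference of 0.78 that was not called (SE 0.33, adjusted p = 0.998).

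None of the 3 mitochondrial targets was called. Bnip3, which directs mitochondria to autophagy (chromosome 7, 138890836 to 138909506), had 99.6 and 105 CPM in unconditioned WT, 80.9, 26.3 and 95.6 in conditioned WT, 156, 147 and 137 in unconditioned KO, and 79.0, 18.5 and 14.9 in conditioned KO. No conditioned library reached an unconditioned one. The change in KO, -1.97 (SE 0.62), just missed the threshold (adjusted p = 0.0535), and that in WT was -0.60 (SE 0.67, adjusted p = 0.763). Its relative Bnip3l changed by -0.54 (SE 0.20, adjusted p = 0.0809) and Higd1a, a protein of the respiratory chain, by -0.92 (SE 0.40, adjusted p = 0.123) in KO.

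Among the 10 other hypoxia targets, 4 fell in KO: P4ha2, P4ha1, Adm and Mxi1. P4ha1 and P4ha2 are the catalytic subunits of the collagen prolyl hydroxylases that let collagen fold. P4ha2 (chromosome 11, 54100924 to 54131667) had 358 and 307 CPM in unconditioned WT, 185, 165 and 227 in conditioned WT, 382, 429 and 452 in unconditioned KO, and 227, 123 and 126 in conditioned KO. It fell by 1.41 in KO (SE 0.24, adjusted p = 0.00820), a call kept in all 11 fits that left out 1 library, and the WT change was -0.79 (SE 0.25, adjusted p = 0.157). P4ha1 (chromosome 10, 59323243 to 59373304) had 687 and 619 CPM in unconditioned WT, 530, 436 and 543 in conditioned WT, 714, 828 and 795 in unconditioned KO, and 579, 320 and 270.0 in conditioned KO. It fell by 0.999 in KO (SE 0.25, adjusted p = 0.0273), a call that held in 7 of the 11. For both genes every conditioned library was below every unconditioned one.

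Adm encodes adrenomedullin, a vasodilator peptide (chromosome 7, 110627669 to 110629819). It had 94.5 and 119 CPM in unconditioned WT, 42.5, 40.1 and 84.7 in conditioned WT, 137, 153 and 115 in unconditioned KO, and 72.1, 27.5 and 21.7 in conditioned KO, without overlap between media. It fell by 1.74 in KO (SE 0.44, adjusted p = 0.0275), a call that likewise held in 7 of 11, and the WT change was -0.94 (SE 0.47, adjusted p = 0.396). Mxi1, an antagonist of MYC, had 38.3 and 36.1 CPM in unconditioned WT, 30.7, 17.2 and 29.2 in conditioned WT, 38.9, 40.0 and 37.5 in unconditioned KO, and 28.9, 15.3 and 19.1 in conditioned KO, again without overlap. It fell by 0.88 in KO (SE 0.25, adjusted p = 0.0405), a call that held in 2 of the 11 fits that left out 1 library.

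Vegfa, the angiogenic growth factor and a textbook HIF target, did not follow. Its level was 176 and 195 CPM in unconditioned WT, 219, 161 and 255 in conditioned WT, 221, 192 and 171 in unconditioned KO, and 206, 182 and 178 in conditioned KO. The changes were 0.19 in WT (SE 0.19) and -0.04 in KO (SE 0.17), and the groups overlapped. Car9, a carbonic anhydrase that offsets acid from lactate (chromosome 4, 43507026 to 43513725), had 59.3 and 55.8 CPM in unconditioned WT, 29.7, 15.2 and 46.9 in conditioned WT, 83.7, 70.7 and 75.5 in unconditioned KO, and 46.3, 8.88 and 6.63 in conditioned KO. Its media did not overlap, and the change in KO was -1.90 (SE 0.65, adjusted p = 0.0678). Ankrd37 had 27 and 28 fragments in unconditioned WT, 38, 5 and 34 in conditioned WT, 59, 26 and 26 in unconditioned KO, and 32, 2 and 2 in conditioned KO.

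Ndrg1, a stress-induced protein, and Ero1l, an oxidase that forms disulfide bonds in the endoplasmic reticulum, ran against the rest. Ndrg1 had 72.2 and 56.5 CPM in unconditioned WT, 61.6, 94.2 and 44.1 in conditioned WT, 71.7, 61.8 and 74.2 in unconditioned KO, and 55.9, 103 and 141 in conditioned KO. Ero1l had 114 and 107 CPM in unconditioned WT, 97.2, 150 and 92.4 in conditioned WT, 131, 202 and 197 in unconditioned KO, and 104, 237 and 245 in conditioned KO. Both were highest in the conditioned libraries where Ldha and Slc16a3 were lowest, and neither was called for the medium. Kdm3a, a histone demethylase, had changes of 0.03 in WT (SE 0.30) and -0.21 in KO (SE 0.27).

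The conditioned libraries thus differed among themselves more for these genes than for most. The SD of log2(CPM + 1) between conditioned KO libraries had a median of 0.64 over the members, against 0.25 over all genes tested, and 18 of 38 members exceeded the 90th percentile of all genes, 0.64. In conditioned WT the medians were 0.45 and 0.16, and again 18 members exceeded the 90th percentile. In unconditioned KO and WT 2 members and no member did so. The libraries behind this were conditioned KO 1 and 2 and conditioned WT 1. Each of the 2 KO libraries was among the 3 lowest of the 11 for 31 of 38 members, and conditioned WT library 1 for 28, against 33.6%, 38.3% and 25.3% of all genes. Conditioned KO library 0 was among the 3 lowest for 3 members, against 19.5% of all genes. Conditioned WT libraries 0 and 2 were so for 4 members each, against 26.7% and 23.0% of all genes. Relative to the unconditioned mean of their genotype, 22 and 24 members were at least 2-fold lower in conditioned KO libraries 1 and 2, against 7.62% and 10.7% of all genes, and 2 members in library 0, against 3.94%. In conditioned WT the numbers were 2, 16 and 0 members in libraries 0, 1 and 2, against 4.07%, 3.75% and 2.46% of all genes.

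**Figure D3:**
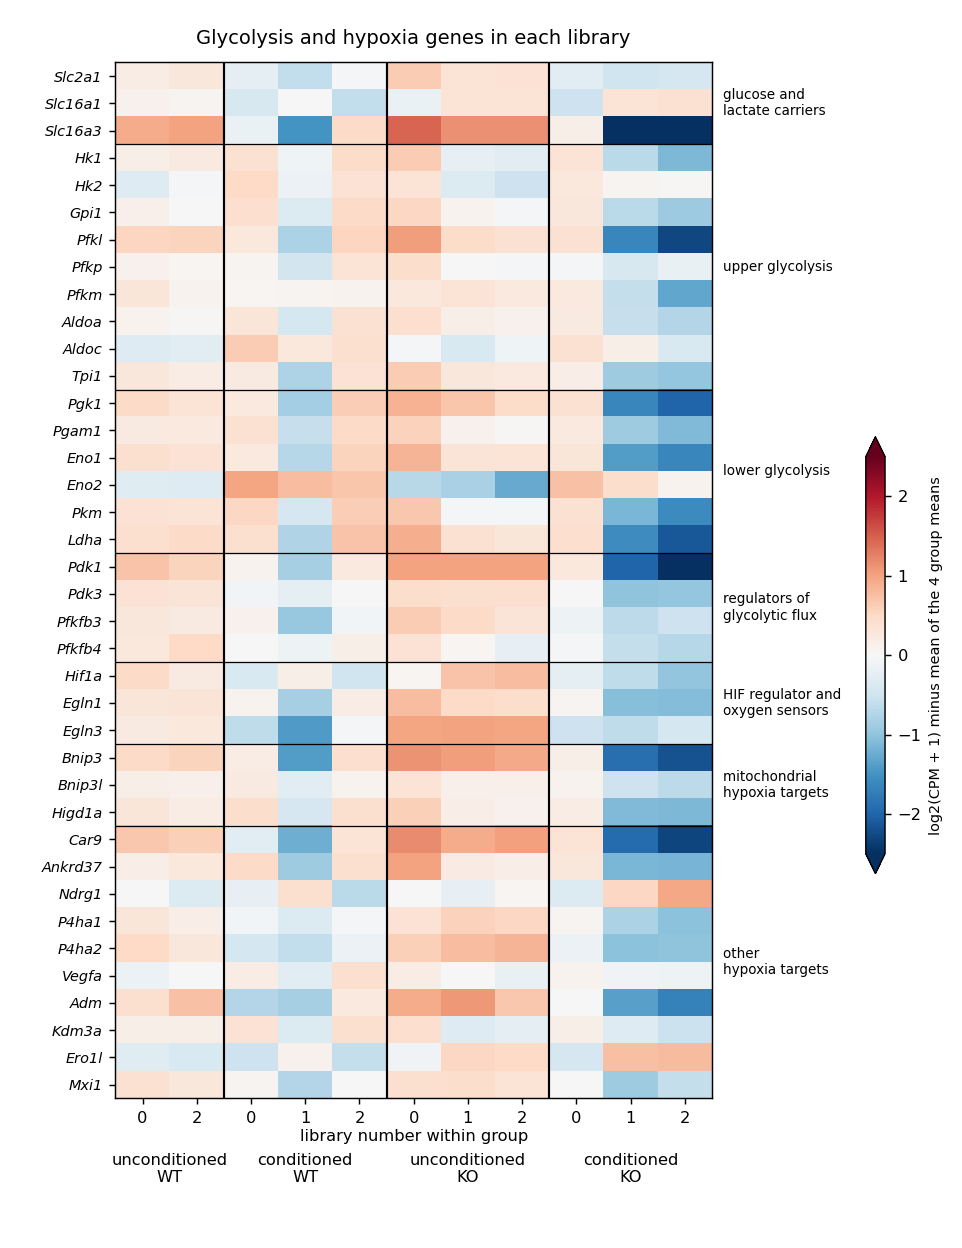
Each member (row) in each library (column), as log2(CPM + 1) minus the mean of the 4 group means, from blue (low) to red (high), with roles at the right. Conditioned KO libraries 1 and 2 and conditioned WT library 1 are blue for most rows, Eno2, Ndrg1, Ero1l and Slc16a1 run against this, and the unconditioned columns are mostly red.

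**Figure D4:**
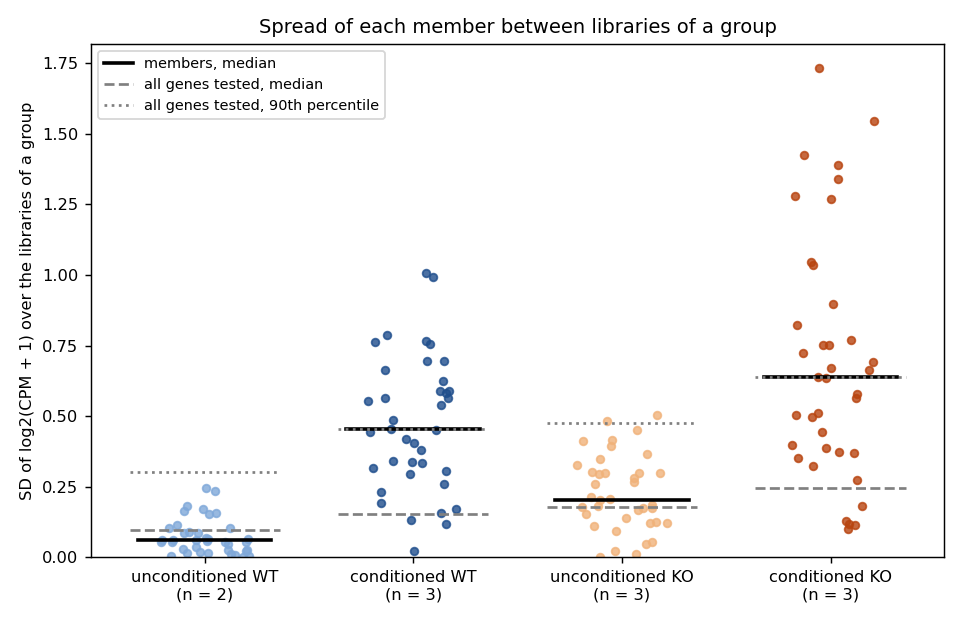
SD of log2(CPM + 1) over the libraries of a group, 1 point per member, with the members' median (black) and the median (dashed) and 90th percentile (dotted) of all genes tested. In both conditioned groups the members' median lies at about the 90th percentile of all genes, and in the unconditioned groups well under it.

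KO and WT were compared next, in each medium. In unconditioned medium no member was called, against 0.00735% of all genes, and no member by DESeq2 or limma. At an unadjusted p under 0.05 in edgeR there were 2 of the 38 members, against 294 of all 13603 genes. The median log2 difference was 0.14, against 0.01 for all genes, and 33 of 38 were above 0. Unconditioned KO library 0 was among the 3 highest of the 11 libraries for 32 members, against 22.6% of all genes. Without unconditioned KO library 0 the median was 0.06 with 22 above 0. Without unconditioned KO library 2 it was 0.23. With the replicate block it was 0.285, and with the averaged WT library as number 1 in that block -0.03, with 17 above 0. The KO libraries lay above the WT libraries without overlap for 13 members and below for 1, Eno2, against 9.12% and 8.01% of all genes (17.1% either way). The largest differences were Egln3 (0.78, SE 0.33) and Ero1l (0.68, SE 0.36) on the higher side and Eno2 (-0.64, SE 0.23) and Pfkfb4 (-0.34, SE 0.28) on the lower. In conditioned medium no member was called, against 0.0% of all genes, and no member by DESeq2 or limma. At an unadjusted p under 0.05 in edgeR there was 1 of the 38 members, against 1897 of all 13603 genes. The median was -0.47, against -0.01 for all genes, with 34 of 38 below 0, and KO and WT libraries overlapped for every member, against no overlap for 8.87% of all genes (4.22% lower and 4.65% higher). The largest differences were Ankrd37 (-1.20, SE 0.98) and Slc16a3 (-0.93, SE 0.76) on the lower side and Ero1l (0.79, SE 0.32) and Ndrg1 (0.58, SE 0.33) on the higher. The comparisons of genotype and of medium share libraries, so their values are not independent of each other.

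Conditioned KO library 0 decided these counts. Without it 28 members were called between KO and WT in conditioned medium, 25 lower and 3 higher, against 33.2% of all genes, among them Slc16a3 (-2.66, adjusted p = 0.00610), Pdk1 (-2.28, adjusted p = 0.00221) and Ldha (-2.05, adjusted p = 0.00679). The members' median was then -0.84, whereas it was -0.32 without conditioned KO library 1, -0.23 without library 2 and -0.36 without conditioned WT library 2. Without it 31 members were called for the medium in KO, against 44.9% of all genes, 13 for the interaction, against 10.5%, and 3 for the medium in WT, against 6.75%. Without conditioned KO library 1, 2 members, Eno2 and P4ha2, were called for the medium in KO, against 2.36% of all genes. Without library 2, or without unconditioned KO library 1 or 2, 4 were called, against 5.09%, 2.95% and 3.37%. Whether library 0 or libraries 1 and 2 stand for the treatment cannot be told from these samples.

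**Figure D5:**
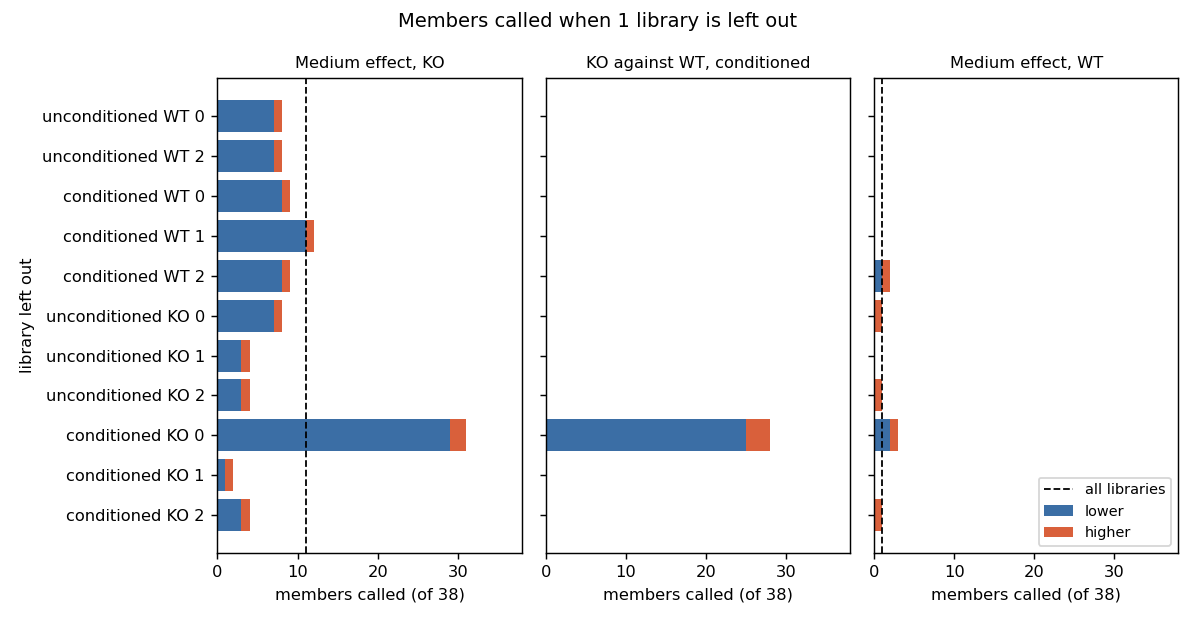
Number of members called lower (blue) or higher (orange) when the library named at the left is left out, for the medium effect in KO, the genotype difference in conditioned medium and the medium effect in WT. Dashed lines mark the count with all libraries, 11, 0 and 1. Leaving out conditioned KO library 0 gives 31, 28 and 3.

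Other genes of the pathway, outside the 38, were read from 2 lists. Of 29 further genes of glycolysis, pyruvate and lactate that passed the filter, 7 were called lower and 1 higher for the medium in KO. The shares of all genes were 8.58% and 9.68%. In WT 1 was called lower, against 0.551% of all genes. Pdk4, a pyruvate dehydrogenase kinase known to rise in fasting, fell in both genotypes, from 26.1 ± 1.92 CPM (SD, n = 2) to 9.53 ± 1.86 (n = 3) in WT and from 26.3 ± 6.63 to 7.36 ± 1.54 (n = 3 each) in KO, or by 1.45 (SE 0.26, adjusted p = 0.0292) and 1.84 (SE 0.24, adjusted p = 0.00450) on the log2 scale. Others called lower in KO included Pfkfb1, the transketolase Tkt, Pdp1, which reactivates pyruvate dehydrogenase, glycogen synthase Gys1 and the glucose carrier Slc2a3, with log2 changes between -1.36 and -0.76. Pdhb, a subunit of pyruvate dehydrogenase, rose by 0.62 (SE 0.18, adjusted p = 0.0419).

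Of 49 further genes of HIF signalling and hypoxia targets that passed the filter, 11 were called lower and 5 higher in KO. The shares of all genes were 8.58% and 9.68%, so the higher calls lay near that of all genes. In WT 2 were called lower and 2 higher, against 0.551% and 1.23% of all genes. Epas1, which encodes HIF-2alpha, fell from 236 ± 135 to 33.8 ± 17.4 CPM in KO (SD, n = 3 each), by 2.80 (SE 0.54, adjusted p = 0.0114). Hif3a, a HIF family member, fell by 3.77 (SE 0.85, adjusted p = 0.0190) with 0 to 84 fragments. Lox, which crosslinks collagen, fell from 9083 ± 2207 to 1943 ± 1317 CPM (SD, n = 3 each), by 2.23 (SE 0.44, adjusted p = 0.0125), and the collagen lysyl hydroxylases Plod1 and Plod2 fell by 1.11 (SE 0.22, adjusted p = 0.0119) and 0.97 (SE 0.18, adjusted p = 0.0111). Cox4i2, a subunit of cytochrome c oxidase, the mitochondrial adenylate kinase Ak4, Zfp395 and Gys1, which is in both lists, were also lower, with log2 changes between -2.42 and -0.94. Angptl4, an inhibitor of lipoprotein lipase, and the growth factor Vegfc fell in both genotypes, Angptl4 by 2.59 in WT (SE 0.25, adjusted p = 0.00514) and 1.47 in KO (SE 0.23, adjusted p = 0.00669). Vegfb, a growth factor of the same family as Vegfa, rose by 1.54 in WT (SE 0.22, adjusted p = 0.0139) and 1.39 in KO (SE 0.19, adjusted p = 0.00482), and Bhlhe41, a transcriptional repressor, by 2.17 (SE 0.36, adjusted p = 0.0245) and 1.49 (SE 0.30, adjusted p = 0.0127). Kdr, a VEGF receptor, Arnt2, a partner of HIF, and Egln2, an oxygen sensor, were higher in KO. The list medians in KO were -0.28 and -0.40, against 0.02 for all genes.

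Markers of other cells were summed in each library. For the medium, 9.68% of all genes were called higher and 8.58% lower in KO, and 1.23% and 0.551% in WT. The marker calls below are few and stand beside these shares. Macrophage and osteoclast markers, 15 of 19 listed genes tested, summed to 179 to 241 CPM in the 5 unconditioned libraries and 373 to 496 CPM in the 6 conditioned ones, with Dcstamp at 0 in all. Of these Cybb and Ctsk were called higher in KO and Ctsk in WT. Endothelial markers, 5 of 9 tested and Cldn5 at 0, summed to 4.65 to 9.37 CPM in unconditioned and 9.40 to 16.5 CPM in conditioned libraries, with Kdr, Tek and Vwf called higher in KO. The osteoblast markers summed to 36910 to 59380 CPM in unconditioned KO and 25200 to 33790 CPM in conditioned KO. Of 13 tested, Alpl and Pth1r were called lower in KO and Bglap2 higher. Skeletal muscle markers, which could bear on Pfkm, summed to 48.5 to 318 CPM in unconditioned WT and 27.7 to 232 CPM in conditioned WT, and to 52.3 to 128 CPM and 48.2 to 81.7 CPM in KO. These ranges overlapped, and none of 17 muscle markers was called. Chondrocyte markers summed to 837 to 1895 CPM in conditioned KO, 1958 to 2862 CPM in unconditioned KO, 1888 to 2513 CPM in conditioned WT and 1849 to 2960 CPM in unconditioned WT, with none of 7 called. Of the adipocyte and keratinocyte markers, Fabp4 was called lower in KO and none in WT. Their part in the results was not tested, and in bulk samples fewer cells of a type and less RNA per cell cannot be told apart.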

How the data were processed

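RNA of 12 cultures was sequenced, and library numbers are those of the table. The build was mm10 (GRCm38) and the tools were Cufflinks 2.1.1, Cuffdiff 2.1.1, TopHat2 2.0.9 and CASAVA 1.8.2, per the submitters' processing notes. Estimated counts (fragments per gene, 94.3% whole) and FPKM per library were deposited by the authors, as were their p-values and q-values for splicing and promoter use. Transcript lengths are those of the deposited files, and starts were moved by 1 base to count from 1.

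Estimated counts were rounded, and 1714 genes without a symbol, with 2.69 to 3.10% of fragments, were left out. Counts were scaled by TMM, filtered with filterByExpr, and tested with edgeR 4.0.16 (quasi-likelihood, robust, R 4.3.3) in 1 fit of 4 groups and 11 distinct libraries, with 7 residual degrees of freedom and a common biological coefficient of variation of 0.238. SE is the log2 change over the root of F. CPM use TMM-scaled library sizes. Alternatives used DESeq2 1.42.0, limma 3.58.1, other filters, fewer or all libraries, and a replicate block. Near-identical stretches were found with BLAST 2.17.0. The tests were checked on simulated counts.

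Members and gene lists were chosen with earlier results of these data known. Values in every library are given for called members, the 2 largest rises and falls of each comparison, and Hif1a, Slc2a1, Hk2, Ldha, Vegfa and Bnip3, and the others by range. The lists were 2 of other pathway genes and markers of osteoblasts, skeletal muscle, macrophages and osteoclasts, endothelium, keratinocytes, chondrocytes and adipocytes. Values of 1 pathway gene are not reported here.

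The main fit used no pairing, although the sample titles use the same culture numbers in both media. In KO, same-numbered libraries of the 2 media deviated together (correlations 0.354, 0.281 and 0.326). The numbers, which come from the table, were therefore taken to pair them in the fits with a replicate block. In fits of all groups this block also ties same-numbered WT and KO libraries, which differ in genotype label. Correlations of those libraries ran from -0.402 (conditioned WT 2 with unconditioned KO 2) to 0.533 (conditioned WT 1 with conditioned KO 1). Within KO, differently numbered pairs reached 0.342 (unconditioned 2 with conditioned 1) and 0.117 (1 with 2). Between genotypes, a differently numbered pair reached 0.473 (conditioned WT 1 with unconditioned KO 2). Correlations of this size thus do not show a pairing, which remains uncertain. In WT the correlations of same-numbered libraries were -0.126 and 0.478. The 2 unconditioned WT libraries deviate from their mean in opposite ways by construction, so their correlations mirror each other. Unconditioned WT library 0, which is the average of libraries 0 and 1, had 0.502 with conditioned WT library 1.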

Additional observations from a re-analysis of the deposited data

How the results depend on the processing

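No called change reversed its direction, but the members' median between KO and WT in unconditioned medium, 0.14, was -0.03 with the averaged-library block. The KO against WT comparisons in both media and the interaction called 0 members in every alternative that kept all libraries. For the medium effect in KO, with 11 members called, DESeq2 called 16 (24.9% of all genes), limma on log2(FPKM + 1) 14 (16.7%), edgeR without a filter on low counts 10 (11.7%), and a fit of only the KO groups 5 (4.12%). The replicate block over all groups, which also ties WT to KO libraries, called 16 members (13.4%). With the averaged WT library as number 1 that block called 20 (18.6%), and the KO libraries only with the replicate block called 0 (0.0%). The last 2 were chosen after seeing the data. All 12 libraries, with the repeated one entered as 2, gave 2 members for the medium in WT (6.89%), 15 in KO (25.1%) and 17 for the mean of both genotypes (30.3%), and the averaged block 21 for the mean (22.2%). The median for the medium in WT, -0.24, was -0.51 with the averaged block. The block changed no other count of members by over 1.5 times. Leaving out 1 library gave 0 to 28 members between KO and WT in conditioned medium, 0 in unconditioned medium, 0 to 3 for the medium in WT, 2 to 31 in KO, 5 to 27 for the mean and 0 to 13 for the interaction, the upper ends without conditioned KO library 0. Depth limits chiefly Ankrd37, with 2 to 59 fragments a library, and the 2 unconditioned WT libraries limit each WT comparison.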
